A study of Caenorhabditis elegans with 4 samples.

Results

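The 260 regions described here are peaks of the transcription factor UNC-39 that lie in the central blocks of chromosomes II, III, IV and V of Caenorhabditis elegans. A peak is an interval where immunoprecipitated DNA was called as enriched. Peaks were taken from the combined list of the study when their midpoint fell inside II:3787682-11363045, III:3366340-10099021, IV:4319669-12959006 or V:5196235-15588705 of genome WS180, with all widths kept. The rule uses position alone, and it took 260 of 1082 combined peaks (24.0%). Another 257 lay on the arms of the same chromosomes, and the rest were on I and X.

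ChIP-seq, in which DNA bound to a protein is collected with an antibody and sequenced, had been run on whole larvae at the L2 stage. The ChIP group had 2 libraries and the input group 2, and all of them came from hermaphrodites of strain OP186 grown at 20 °C. Every sample carried the unc119(ed3) mutation and the transgene wgIs186, introduced by particle bombardment, which holds unc39 fused to TY1, EGFP and FLAG tags together with an unc119 copy. ChIP libraries were collected with goat anti-GFP antibody, which sees only the protein made from the transgene, and input libraries were sonicated chromatin without antibody. Peak lists of ChIP replicate 1 (41 peaks), of ChIP replicate 2 (1077 peaks) and of a combined set were analysed. The input libraries were not analysed here, read depth is unknown, and the labels do not say whether the replicates were separate cultures.

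UNC-39 is a homeodomain protein related to sine oculis of Drosophila, and proteins of this kind bind DNA through the homeodomain and a conserved domain beside it. In this worm the gene is needed for migration of certain neurons and for parts of the mesoderm. Worm autosomes have a gene-dense centre with little recombination, flanked by arms that hold more repeats and more repressive chromatin. The central blocks used here are the middle 50% of each chromosome's span of peaks, not the measured limits of those domains. Whole larvae were used, so a peak does not tell in which cells, or in how many, a site was bound. Peaks are named by position only, since gene positions and sequence of WS180 were not used here. Each peak carries a q value from the authors' caller, a p-value adjusted for multiple testing, and strength is given here as q or as −log10 q, which is higher for a stronger peak.

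The centres held about as many called peaks as the arms. In the combined list, 260 of 517 peaks on II to V were central (50.3%, exact 95% interval 45.9 to 54.7%). This was 7.80 peaks per Mb in the centres and 7.71 per Mb on the arms, with the furthest peak end standing for the chromosome's length. Chromosome V held the most central peaks. It had 93 in its centre and 92 on its arms, III had 64 and 61, II had 54 and 60, and IV had 49 and 44. Per Mb of central block, III was the densest at 9.51, followed by V at 8.95, II at 7.13 and IV at 5.67. The arms of the same chromosomes had 9.06 per Mb on III, 8.85 on V, 7.92 on II and 5.09 on IV. The order of the chromosomes was thus the same in centres and on arms. Replicate 2 alone put 255 of its 515 peaks on II to V in the centres (49.5%), and replicate 1 put 6 of 15 there (40%, interval 16.3 to 67.7%). All intervals cover counting error over peaks and not the variation between libraries.

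**Figure D1:**
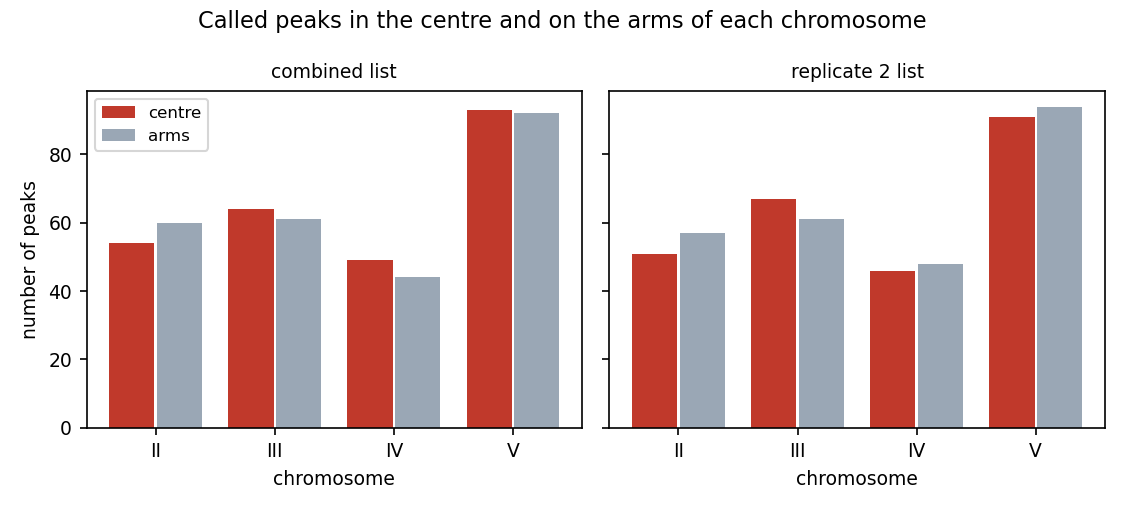
Number of called peaks in the centre (red) and on the arms (grey) of chromosomes II to V, in the combined list (left) and in the replicate 2 list (right). Chromosome V has the tallest bars in both lists, with 93 central and 92 arm peaks in the combined list.

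Few peaks were strong calls, in the centres as on the arms. The −log10 q of central peaks ran from 4.23 to 26.3. Its median was 5.12 (interval 4.91 to 5.37) and its quartiles were 4.59 and 6.45. Arm peaks had a median of 5.15 (interval 5.02 to 5.36), with quartiles of 4.58 and 6.25, so the middle parts of the 2 distributions nearly coincided. By strength, 13 central peaks had −log10 q over 10 (5%, interval 2.69 to 8.40%), 129 lay between 5 and 10, and 118 were at 5 or below. Among all 1082 combined peaks, 7.95% were over 10, and on the arms 17 of 257 were (6.61%). On chromosome I the share was 6.68% and on X it was 18.0%, so X raises the background. Central peaks made up 7 of the 50 strongest combined peaks and 18 of the 100 strongest, against 11 and 20 for arm peaks. The 7 are 2.69% of central peaks (interval 1.09 to 5.47%) and the 11 are 4.28% of arm peaks. The background over all combined peaks is 4.62%. Likewise 6.92% of central peaks were among the 100 strongest (interval 4.15 to 10.7%), against a background of 9.24%. No test of centres against arms was made, since peaks of one list are not independent replicates.

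Strength varied among the 4 centres. The median −log10 q was 4.89 on II (interval 4.67 to 5.83), 5.33 on III (4.88 to 6.23), 4.73 on IV (4.56 to 5.24) and 5.34 on V (5.02 to 5.73). These intervals overlap between all pairs of chromosomes. Of the 13 peaks with −log10 q over 10, III held 5 (7.81% of its central peaks), V 5 (5.38%), II 2 (3.70%) and IV 1 (2.04%). The arms held 7 such peaks on III, 5 on V, 4 on II and 1 on IV. Of the 50 strongest central peaks, 23 were on V, 12 on III, 9 on II and 6 on IV. V thus made up 46.0% of these 50 (interval 31.8 to 60.7%), beside 35.8% of all 260 central peaks (interval 29.9 to 41.9%). The 50 are part of the 260, so the 2 intervals do not compare them, and the difference was not tested.

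**Figure D2:**
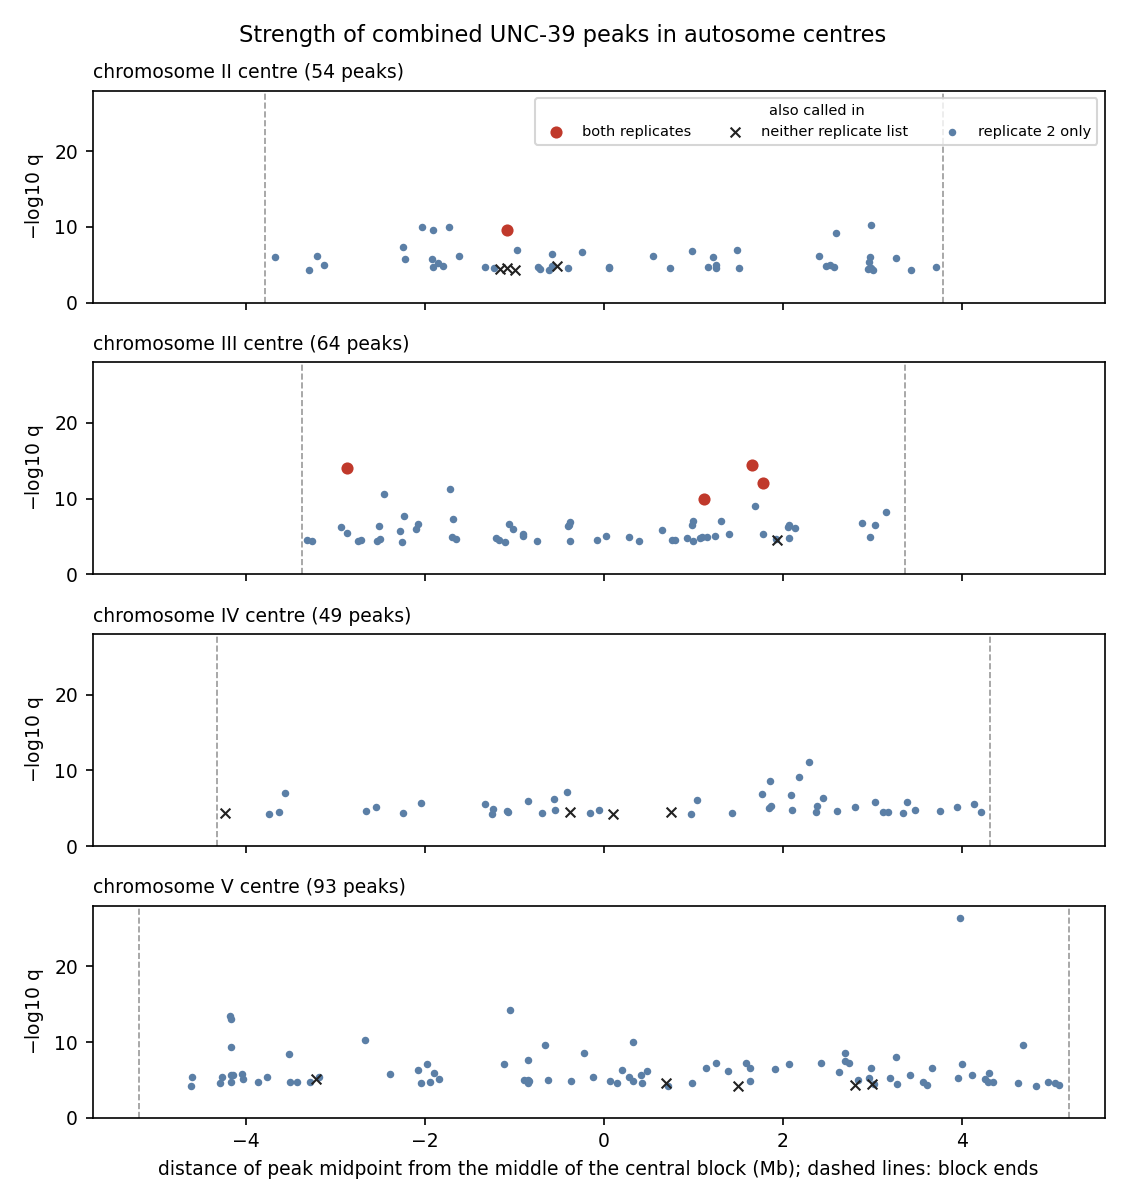
Strength of each central peak (−log10 q, y axis) against the distance of its midpoint from the middle of the central block in Mb (x axis), 1 panel per chromosome. Large red points were called in both replicates, small blue points only in replicate 2, and crosses in neither replicate list. One peak on V stands at 26.3, while the highest of the others is at 14.4.

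The strongest central peak was also the widest. It covered 23627 bp at V:14364426-14388052 with q = 4.64e-27, and ranked 5 among all combined peaks. Replicate 2 had the same interval with the same q, and replicate 1 had no peak there. After a gap of 2994 bp came the second widest central peak, V:14391047-14396931, at 5885 bp and q = 8.06e-08, which was likewise called in replicate 2 and not in replicate 1. The pair spanned 32506 bp. Both together made up 24.7% of the 119.4 kb covered by central peaks, and the wider one alone 19.8%. The third widest was 1568 bp. Without the 23627 bp interval the centres held 95.8 kb in peaks, against 116.8 kb on the arms.

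The RefSeq gene table of assembly WBcel235 lists unc-39, the gene of the tagged protein, on chromosome V. The strain carries unc-39 again in its transgene, and reads from a transgene copy have the sequence of the gene's own locus. The position that WBcel235 gives for unc-39 is, as a number, within 100 kb of the 23627 bp interval. The 2 builds number bases differently and were not joined, so whether the interval covers the unc-39 locus was not tested. It was treated as 1 peak. Leaving it out moved none of the 8 summary values outside the interval of the main value. These are shares and medians, which 1 of 260 peaks can hardly move, so this says little about its weight.

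Below that interval, the strongest central peaks lay on III and V. On III, III:8392228-8392682 had q = 4.17e-15 and ranked 32, and III:3867361-3867709 had q = 1.04e-14 and ranked 34. III:8510891-8511349 followed with q = 9.49e-13, then III:5013437-5014393 with q = 5.39e-12 and III:4281573-4282550 with q = 2.35e-11. These 5 were between 349 and 978 bp wide. The first 3 of them were also called in replicate 1, and the other 2 were not.

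On V, V:9343159-9344520 was a 1362 bp peak with q = 6.28e-15 and ranked 33. V:6221213-6222048 (q = 3.92e-14) and V:6223927-6225289 (q = 9.17e-14) ranked 35 and 37. The next on V were V:7727821-7729062 (q = 5.00e-11) and V:10715678-10716038 (q = 1.02e-10). None of these 5 had a counterpart in replicate 1. In replicate 2 each had the q it has in the combined list.

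The centres of II and IV held 2 and 1 peaks with −log10 q over 10, among 54 and 49. The intervals of these shares (0.45 to 12.7% and 0.05 to 10.9%) overlap those of III and V (2.59 to 17.3% and 1.77 to 12.1%). The strongest on IV was IV:10935318-10936396, 1079 bp wide, with q = 8.27e-12 and rank 62. It was followed by IV:10821360-10822313 (q = 8.11e-10) and IV:10499930-10500345 (q = 2.55e-09), so the 3 strongest peaks of that centre lay within a stretch shorter than 500 kb. On II the strongest were II:10563193-10563887 (q = 5.20e-11), II:5844630-5845183 (q = 9.55e-11) and II:5543372-5544000 (q = 1.13e-10). None of these 6 was called in replicate 1, and all 6 had the same q in replicate 2 as in the combined list.

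Few central peaks were called in both replicates, and the replicate 1 list had only 6 peaks in the centres that could overlap them. Of the 260, 5 overlapped a replicate 1 peak by at least 1 bp (1.92%, interval 0.63 to 4.43%), against 9 of 257 on the arms (3.50%, interval 1.61 to 6.54%). Over all combined peaks the share was 3.70%, which lies inside both intervals. Chromosome III had 4 of the 5, which is 4 of its 64 central peaks (6.25%, interval 1.73 to 15.2%), and II had 1 of 54. IV had 0 of 49 and V had 0 of 93, with limits of 3 counts at 6.12% and 3.23%. Replicate 1 had no peak in either of these centres. Neither count could thus differ from 0, and the limits cover counting error only. On the arms III again had the most, with 5 of 61, followed by IV with 2 of 44, II with 1 of 60 and V with 1 of 92.

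Each of the 5 was stronger and wider in replicate 2 than in replicate 1. III:8392228-8392682 had q = 2.24e-08 in replicate 1 and q = 6.33e-15 in replicate 2, with widths of 362 and 451 bp. III:3867361-3867709 had q = 2.54e-07 in replicate 1 and q = 1.04e-14 in replicate 2, with widths of 332 and 349 bp. III:8510891-8511349 had q = 2.16e-07 in replicate 1 and q = 9.49e-13 in replicate 2, with widths of 393 and 459 bp. The first of these was the strongest of the 3 in both replicates, while the other two changed places. The remaining peak on III was III:7854437-7854772, with q = 1.39e-06 in replicate 1 and q = 1.21e-10 in replicate 2, and widths of 314 and 336 bp. On II, II:6491725-6492125 had q = 3.45e-06 in replicate 1 and q = 2.74e-10 in replicate 2, and was 390 and 400 bp wide. The 5 differed little in width, from 336 to 459 bp in the combined list, and none was among the 8 central peaks over 1000 bp. The 9 arm peaks called in both replicates were 327 to 2078 bp wide in that list. Each of these 9 was likewise stronger and wider in replicate 2. Their −log10 q was 5.26 to 11.2 in replicate 1 and 8.64 to 24.4 in replicate 2.

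**Figure D3:**
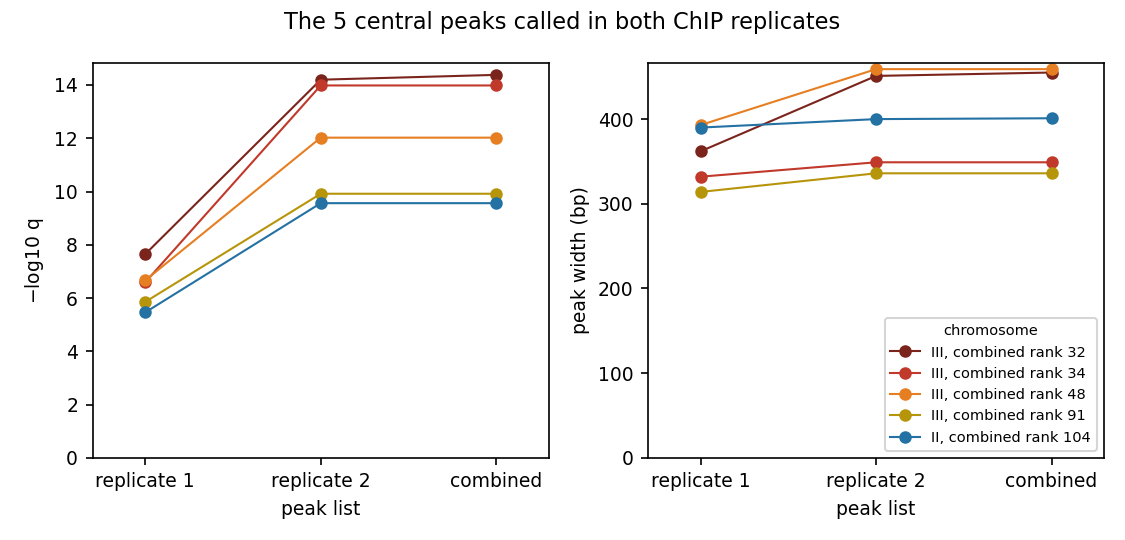
Strength (−log10 q, left) and width in bp (right) of the 5 central peaks called in both replicates, in the replicate 1, replicate 2 and combined lists, with 1 line per peak. All 5 are lowest in replicate 1, at 5.46 to 7.65, against 9.56 to 14.2 in replicate 2, and the combined values lie at or beside those of replicate 2.

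The replicate 1 list ends at a lower q than the combined list does. With the combined list limited to that q, 5 of 122 central peaks were in replicate 1 (4.10%, interval 1.34 to 9.31%), against 9 of 122 arm peaks (7.38%). The same q is not the same strength in both lists: the 5 had −log10 q of 5.46 to 7.65 in replicate 1 and 9.56 to 14.4 in the combined list. Of central peaks at least as strong as the weakest of the 5, 5 of 20 were in replicate 1 (25%, interval 8.66 to 49.1%). Of arm peaks that strong, 7 of 21 were (33.3%, interval 14.6 to 57.0%). That limit was set by the 5 themselves. Replicate 1 had 1 more peak in the centres, II:6175099-6175179, which was 81 bp wide with q = 4.62e-06. No combined or replicate 2 peak overlapped it, and the nearest combined peak, II:6253205-6253309, was 78025 bp away.

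Replicate 2 accounted for nearly all central peaks. Of the 260, 246 overlapped a replicate 2 peak (94.6%, interval 91.1 to 97.0%), against 244 of 257 on the arms (94.9%) and a background of 96.0%. The q was exactly that of replicate 2 for 214 of the 246, lower for 16 and higher for 16, and the largest difference was 1.84 in −log10 q. The 214 were 82.3% of the 260, against 85.6% of arm peaks and a background of 83.8%. Start and end were identical for 190 (73.1% of the 260), against 79.8% of arm peaks and a background of 76.5%. Where the width differed, 47 central peaks were wider in the combined list and 9 narrower, while on the arms 15 were wider and 24 narrower. Most widths were equal, for 190 of 246 central and 205 of 244 arm peaks, and the median difference was 0 bp in both sets. In the other direction, 9 of 255 central replicate 2 peaks had no combined counterpart, with a median −log10 q of 4.65. The combined and replicate 2 lists share data, so this overlap is no independent replication.

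The 14 central peaks in neither replicate list were weak. Their −log10 q had a median of 4.50 and a maximum of 5.12, and their median width was 130 bp. V had 5 of them, II 4, IV 4 and III 1. Their share of the centres was 5.38% (interval 2.97 to 8.87%), against 5.06% on the arms and a background of 3.97%. The strongest was a single base at V:7177362-7177362 and ranked 578. The one at II:6492742-6493105 lay next to II:6491725-6492125, the peak on II that both replicates called.

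Central and arm peaks were alike in median width, while 3.08% of central and 9.73% of arm peaks were very wide. The median width of central peaks was 302.5 bp (interval 259 to 349 bp), against 310 bp on the arms (interval 254 to 345 bp). Widths over 1000 bp were found for 8 of 260 central peaks (interval 1.34 to 5.97%) and for 25 of 257 arm peaks (interval 6.40 to 14.0%), with a background of 5.55%. Those 2 intervals cover counting error over peaks of one list, so they do not compare centres with arms, and the difference was not tested. By chromosome, V had 7 wide peaks in its centre and 14 on its arms. All 14 were among the 60 peaks of its right arm (23.3%), so the arm share rests largely on that 1 arm. IV had 1 in its centre and 4 on its arms, III had 0 and 6, and II had 0 and 1. After the pair at V:14364426-14396931, the widest central peaks were V:15431193-15432760 (1568 bp, q = 2.16e-05), V:6223927-6225289 (1363 bp) and V:9343159-9344520 (1362 bp). The first of these 3 was weak for its width and ranked 781, and the other 2 were among the 6 strongest central peaks.

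At the narrow end, 34 central peaks were under 50 bp (13.1%, interval 9.23 to 17.8%), against 31 of 257 on the arms (12.1%) and a background of 10.6%. Their median width was 14.5 bp, and 2 were a single base. They were weaker calls, with a median −log10 q of 4.69, although 9 ranked among the 541 strongest combined peaks. The strongest of them was III:9881609-9881645, 37 bp wide with q = 5.24e-09.

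Wider central peaks were in general the stronger ones. The median −log10 q was 4.63 for the 48 of at most 100 bp, 5.01 for the 150 over 100 and up to 500 bp, 6.52 for the 54 over 500 and up to 1000 bp, and 10.7 for the 8 wider ones. Across the 260, Spearman's rho between width and −log10 q was 0.50, and across the 257 arm peaks it was 0.37. Both quantities come from the same reads of a peak, so this is a description of the calls.

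**Figure D4:**
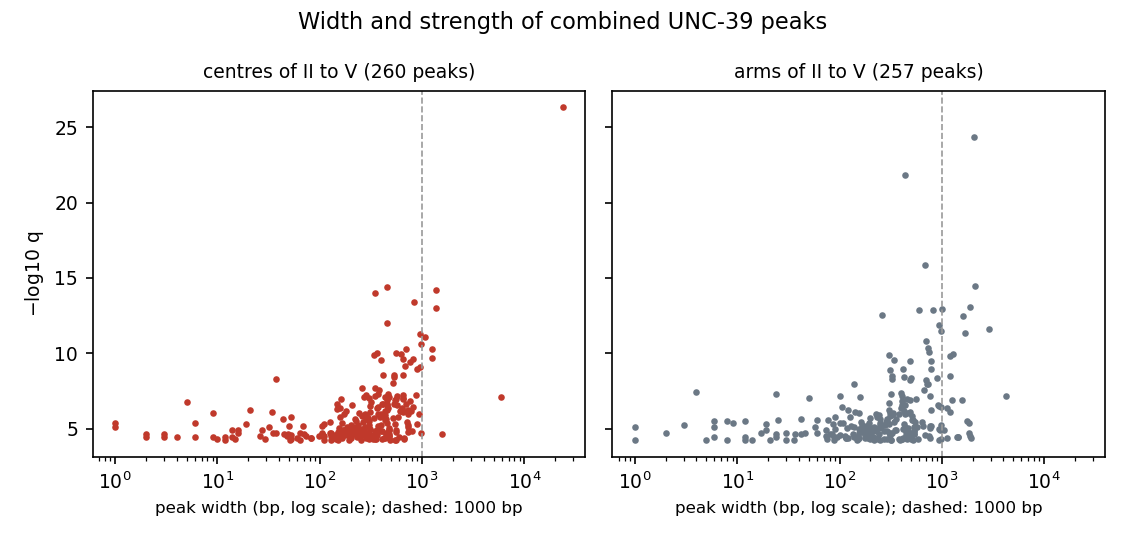
Strength (−log10 q, y axis) against peak width in bp (x axis, log scale) for the 260 central peaks (left) and the 257 arm peaks (right) of chromosomes II to V, 1 point per peak. To the right of the dashed line at 1000 bp are 8 central and 25 arm peaks.

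Central peaks were spread unevenly along the blocks, and arm peaks were spaced unevenly too. Distances between neighbouring midpoints had quartiles of 25.6 and 162.1 kb in the centres, and 15.8 and 184.3 kb on the arms. Those over 500 kb numbered 8 in the centres and 8 on the arms, and the longest were 904.5 and 818.85 kb. Windows were counted in the centres only. Each block was divided from its left end into windows of 500 kb, and the 65 windows of full length held between 0 and 10 peaks, with a median of 4. There were 6 empty windows, 2 each on II, IV and V. The fullest windows were III:7366340-7866339 and V:6196235-6696234, with 10 peaks each. The window on III included III:7854437-7854772, which both replicates called. The window on V took 5 of its 10 peaks from 1 run at V:6221213-6228104, which includes V:6221213-6222048. On II the fullest was II:5287682-5787681 with 8. On IV 2 neighbouring windows from 10319669 to 11319668 held 6 each, among them the 3 strongest peaks of that centre. The longest stretch without a peak was 904.0 kb on IV, between 5081513 and 5985486. II had one of 901.8 kb from 9083044 to 9984849, III one of 744.3 kb from 8874557 to 9618866, and V one of 717.7 kb from 8555848 to 9273516.

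**Figure D5:**
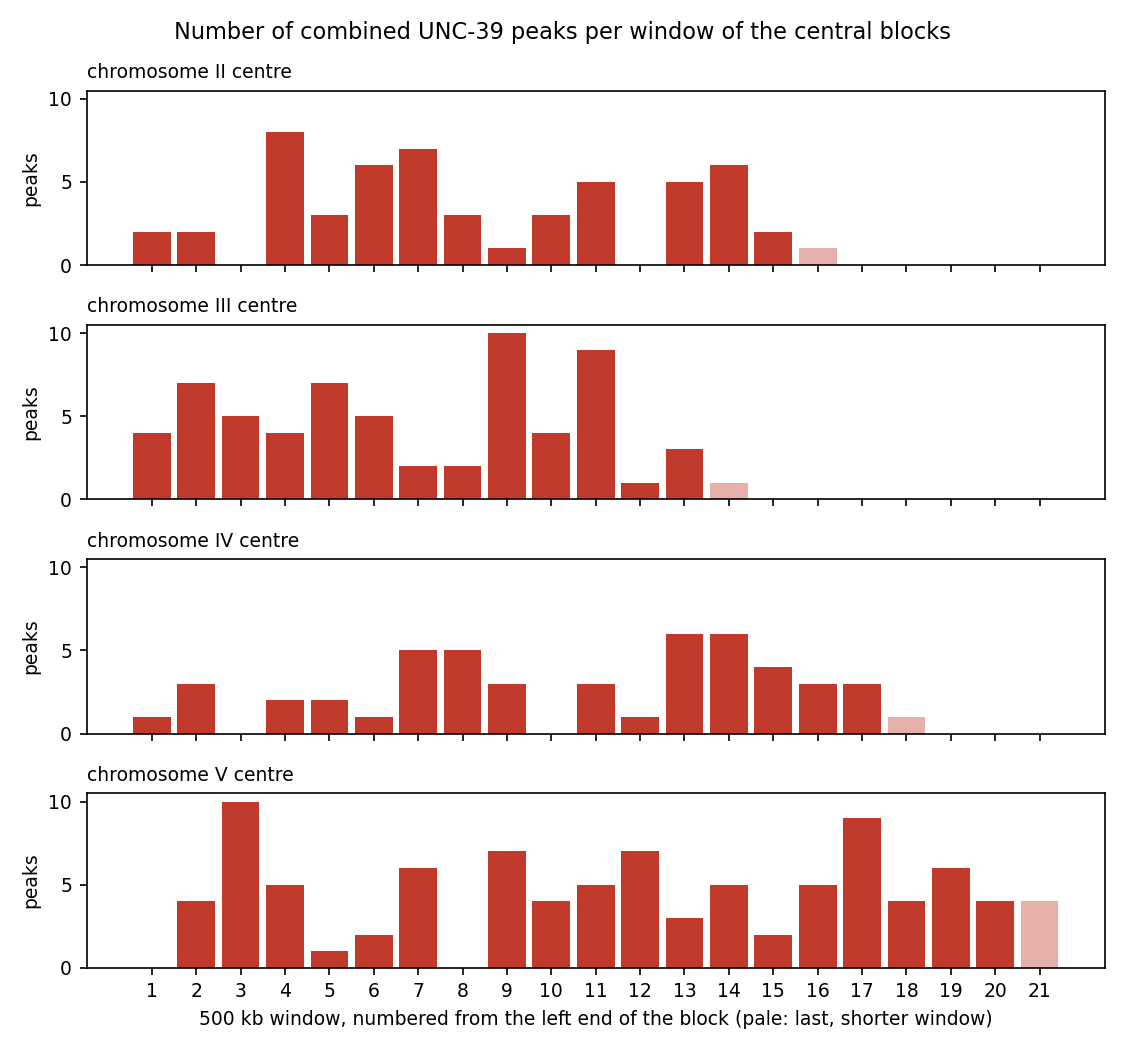
Number of central peaks (y axis) in each 500 kb window, numbered from the left end of the block (x axis), 1 panel per chromosome; pale bars are the last, shorter windows. Counts run from 0 to 10, with the tallest bars at window 9 on III and window 3 on V.

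Neighbouring central peaks were 77.3 kb apart at the median (interval 61.7 to 92.9 kb), against 72.2 kb on the arms (interval 53.7 to 101.0 kb). Of 256 neighbouring pairs in the centres, 24 had midpoints under 5000 bp apart (9.38%, interval 6.10 to 13.6%), against 28 of 249 pairs on the arms (11.2%, interval 7.60 to 15.8%). The close pairs joined 41 central peaks into 17 groups, of which 6 were on III, 5 on II, 5 on V and 1 on IV. These 41 are 15.8% of central peaks (interval 11.6 to 20.8%). On the arms 51 of 257 peaks had another within that distance (19.8%, interval 15.1 to 25.3%). Over all combined peaks 22.7% had, with 31.2% of the 404 on chromosome I and 17.4% of the 161 on X. The background is thus raised by chromosome I.

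The largest group was a run of 5 peaks at V:6221213-6228104. In order along the chromosome they had q = 3.92e-14, 2.08e-06, 1.70e-05, 9.17e-14 and 3.84e-10, so the second was weaker than either end and the one after it the weakest. Peaks covered 57.9% of its 6892 bp, all 5 were in replicate 2 and none in replicate 1. A run of 3 at II:5661027-5662789 had its strongest peak, II:5661602-5662247 (q = 2.46e-10), in the middle. Its gaps of 236 and 361 bp made the 2 closest pairs of all by midpoint, and the third closest was V:6221213-6222048 with V:6222285-6222582, at a gap of 236 bp. Within close pairs the median −log10 q was 7.68 for the stronger peak and 4.80 for the weaker, and in 20 of 24 they differed by more than 1. Sorting each pair by strength makes a difference certain, and some peaks belong to more than 1 pair. Other neighbouring pairs were not summarised, so these values describe the 24 only. Of the 50 strongest central peaks, 13 had a neighbour under 5000 bp away by midpoint (26.0%, interval 14.6 to 40.3%). Of the other 210, 28 had one (13.3%, interval 9.05 to 18.7%). On the arms 20 of the 50 strongest had one (40%) and 31 of the other 207 (14.98%). The 23627 bp interval counts as without one, since the peak after its gap of 2994 bp is 17750 bp away by midpoint. When combined peaks within 1000 bp were merged, close pairs made up 5.28% of neighbouring pairs in the centres and 8.68% on the arms, so part of the closeness lay in gaps that short.

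The 8 peaks just inside the block ends had q between 5.24e-09 and 5.85e-05, and the 8 just outside between 1.04e-09 and 1.16e-05. On II the first peak inside was II:3903616-3903624 (q = 9.71e-07) and the last II:11288208-11288390 (q = 2.16e-05), and just outside were II:3519002-3519182 (q = 6.48e-06) and II:11617693-11618198 (q = 2.68e-06). On III they were III:3418356-3418830 (q = 3.21e-05) and III:9881609-9881645 inside, with III:2768513-2768949 (q = 2.86e-07) and III:10151749-10151994 (q = 5.35e-06) outside. On IV they were IV:4405747-4406412 (q = 4.71e-05) and IV:12849471-12849476 (q = 3.44e-05) inside, with IV:4235916-4236260 (q = 1.16e-05) and IV:13025625-13026399 (q = 1.04e-09) outside. On V they were V:5777023-5777150 (q = 5.85e-05) and V:15475420-15475584 (q = 4.36e-05) inside, with V:5064968-5065662 (q = 5.44e-09) and V:16017739-16017739 (q = 7.15e-06) outside. The nearest midpoint to any block end was 52.3 kb away inside and 52.9 kb away outside.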

How the data were processed

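Per the file headers, peaks were placed on WormBase WS180 and called with PeakSeq, which scores ChIP read enrichment over a control. Its q value (an adjusted p-value) is the number deposited with each peak. How reads were aligned, which control and q threshold were used and how replicates were combined is not given in the sources used here. The weakest replicate 1 peak had q = 5.59e-06, the weakest of replicate 2 had q = 5.93e-05 and that of the combined set q = 5.90e-05, so the lists end at different strengths.

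From the starts, ends and q values, counts, shares and medians were computed with Python 3.11.15, NumPy 2.4.6, pandas 2.3.3 and SciPy 1.17.1, and figures with Matplotlib 3.10.9. Shares carry 95% Clopper-Pearson intervals and medians exact order-statistic intervals. A count of 0 was given a limit of 3 counts. Depth was unknown. No tests were run, because peaks are not replicates. Overlap, block and merging steps were tested on simulated data. The blocks, the limits of 50, 1000 and 5000 bp and the rule for named peaks (the 15 strongest, the 3 strongest per chromosome, those in replicate 1, the widest, the closest, the block ends) were chosen with earlier results of these data known. Alternatives were other lists, q limits, widths, merging, overlap criteria and block sizes.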

Additional observations from a re-analysis of the deposited data

How the results depend on the processing

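Of 75 alternative values for 8 results, 56 stayed within the interval of the main value and 19 did not. The 8 values without the 23627 bp interval, an alternative chosen after seeing the data, were all among the 56. Leaving out 1 of 260 peaks could hardly have moved them, so they are no evidence of stability. Replacing the combined list by 1 replicate's list gave 40 to 49.5% of II to V peaks in the centres, a median −log10 q of 5.18 to 6.23, a median width of 298 to 347 bp, 0 to 35.7% of central peaks on V, 0 to 9.16% close pairs, 0 to 12.9% under 50 bp, an overlap with replicate 2 of 83.3% and an overlap with replicate 1 of 1.96%. The values apart from the main ones were those of the 6 replicate 1 peaks. In the 541 combined peaks of lower q, the overlap with replicate 2 was 100.0%, the median −log10 q 6.55, the median width 439 bp and the share under 50 bp 7.32%. With the largest q in replicate 1 as limit they were 100.0%, 6.57, 438.5 bp and 7.38%, and close pairs were 5.93%. The q limits select strong peaks by construction. Merging within 1000 bp gave 5.28% close pairs. Pairs under 1000 bp were 6 of 256 in the centres (2.34%, interval 0.86 to 5.03%) and 2 of 249 on the arms (0.80%, interval 0.10 to 2.87%). The centres had the higher share at that distance and the lower at 5000 bp, but the intervals overlap at both distances. Taking the middle 40% or 60% of chromosomes as centre put 41.4% and 59.96% of peaks there, which follows from the block size. No paired analysis was possible because the input libraries were not used here and both ChIP libraries belong to one group. With depth unknown, absence from the replicate 1 list does not show that a site was unbound.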
